A study of Homo sapiens with 120 samples.

Results

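Proliferative microrafts of CFPAC-1 that had received saline were compared with proliferative microrafts that had received no treatment. The comparison comprised 16 of the 120 libraries of the series, 8 rafts labelled as treated with saline, whose names begin with Placebo, and 8 labelled as treated with nothing. The 16 libraries were taken by their labels for treatment and proliferation, and the comparisons across genes used those among them that passed limits on genes detected and on likeness to bulk. CFPAC-1 is an epithelial line from a pancreatic ductal adenocarcinoma of a patient with cystic fibrosis, and every raft of both groups came from this line with no other genetic or drug manipulation in its labels. A microraft array is a sheet of small releasable growth surfaces on which a founder cell can be left to divide, and a single raft can be lifted off with the cells it carries. The labels give the number of cells on each of these 16 rafts as unknown, and name neither the growth time nor the culture from which a raft was taken. RNA was amplified with the ClonTech SMARTer chemistry and made into Nextera XT libraries, and expression was deposited as FPKM, fragments scaled to transcript length and to the size of the library.

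Saline is the carrier arm of an experiment that also holds 2 nM and 5 nM gemcitabine arms, and the question put to the data here is how far the carrier arm and the untreated arm differ without any drug. In amplification of RNA from a few cells, transcripts of low copy number are often lost before they are copied, while abundant transcripts such as those of ferritin, keratins, glycolytic enzymes and ribosomal proteins are retained. A gene listed at 0 in such a library may therefore be present in the cells. Fewer cells on a raft and less RNA from each cell cannot be told apart in these libraries.

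The 2 arms carried the same set of index pairs, and 8 of 8 rafts with equal replicate numbers shared a pair. Libraries with 1 index pair cannot be separated within a pool, so the arms were in different pools, and treatment and pool cannot be told apart. Since the labels do not say which rafts came from separate cultures, every p-value below measures the spread between rafts, which may be technical.

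Epithelial markers of the line were present in the rafts that gave rich libraries. The summed level of 24 epithelial and ductal marker genes had a median of 4985 FPKM in the 7 saline rafts used below (lowest 2718, highest 6344), against 5926 FPKM in the 4 untreated rafts used below (lowest 3829, highest 7283), and of 4199.9 FPKM in 4 bulk libraries of the line. These 7 saline rafts detected 7 to 20 of the 24 genes. Untreated rafts 3 and 4 detected 20 and 15, and untreated rafts 1 and 8 only 4 and 5. LGALS4 and CDH17 were at 0 in the 7 saline rafts, and GRHL2 and TSPAN8 besides these in the 4 untreated rafts. SMAD4, a transducer of TGF-beta signals whose gene CFPAC-1 is known to have lost, and CFTR, the chloride channel mutated in cystic fibrosis, were listed at 0 in all 16 rafts and in all 4 bulk libraries. PTPRC, which marks blood cells, and PECAM1, VWF and CDH5, which mark endothelium, were at 0 in all 16 rafts. The highest sum of 9 blood cell markers was 651 FPKM in saline rafts and 178 FPKM in untreated rafts. CD74, the invariant chain of class II antigen presentation, accounted for most of it, with a maximum of 649.5 FPKM in saline rafts and 166 FPKM in untreated rafts, and with 221 FPKM in bulk CFPAC-1. Sums of 6 endothelial markers reached 14.9 FPKM in saline rafts and 17.5 FPKM in untreated rafts. Of 8 keratinocyte markers, KRT1, KRT2, KRT5, KRT14 and LOR were at 0 in all 16 rafts, and the sums were 163 to 480.1 FPKM in the 7 saline rafts and 97.0 to 157 FPKM in the 4 untreated rafts. Of 12 mesenchymal markers, ZEB2, SNAI1, TWIST1, SPARC and COL1A2 were at 0 in the saline rafts, and ZEB1 and COL1A1 besides these in the untreated rafts, with sums of 218 to 740.4 FPKM in the 7 saline rafts and 363 to 810.2 FPKM in the 4 untreated rafts. The share of these markers in the differences below was not tested.

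Saline rafts gave richer libraries than untreated rafts. Among saline rafts 1 to 8, 9525, 9195, 4811, 10099, 735, 7781, 6551 and 4029 genes reached an FPKM of 1. Among untreated rafts 1 to 8, the numbers were 1495, 7, 8271, 5604, 2478, 395, 680 and 1525. Saline raft 5 was the lowest of its arm, and untreated rafts 3 and 4 were the highest of theirs, so that the groups overlapped. The means were 6591 ± 3232 genes in saline rafts and 2557 ± 2899 genes in untreated rafts (SD, n = 8 each), a difference of 4034 genes with p = 0.0233 in a two-sided exact permutation test. Likeness to bulk CFPAC-1, measured as Spearman's rho with the mean of the 4 bulk libraries over the 10767 genes averaging at least 1 FPKM there, was 0.596 ± 0.239 in saline rafts and 0.229 ± 0.264 in untreated rafts (SD, n = 8 each). This difference of 0.367 had p = 0.0141 in the exact test, and both measures had an adjusted p of 0.0233 over the 2 of them. For scale, rafts labelled as holding 1 cell had 6773 ± 1437 genes and a rho of 0.660 ± 0.044, and rafts labelled as holding 2 cells had 8833 ± 1078 genes and a rho of 0.765 ± 0.034 (SD, n = 10 each).

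**Figure D1:**
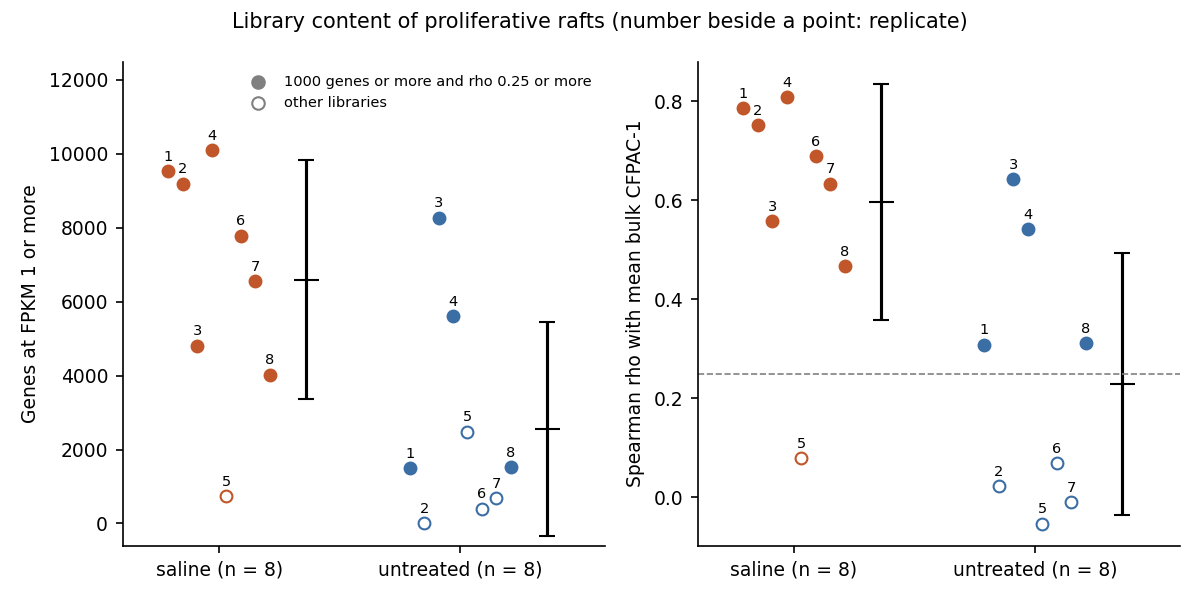
Genes at FPKM 1 or more (left) and Spearman's rho with mean bulk CFPAC-1 (right) for each proliferative raft, saline at the left of each panel and untreated at its right, with mean and SD beside the points (n = 8 each). In both panels 7 saline rafts and untreated rafts 3 and 4 lie above the other 6 untreated rafts and saline raft 5. Filled points passed both library criteria, and the dashed line is a rho of 0.25.

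Fewer untreated than saline rafts met the library criteria, but not beyond the error of such small counts. At least 1000 genes were reached by 7 of 8 saline rafts and 5 of 8 untreated rafts, with p = 0.569 in a two-sided Fisher's exact test. A rho of 0.25 or more besides was reached by the same 7 saline rafts and by 4 untreated rafts, 1, 3, 4 and 8, with p = 0.282 in the same exact test. These are called bulk-like below. The untreated raft dropped by the second criterion, raft 5, had 2478 genes but a rho of -0.053, 43.1% of its detected genes lay below an FPKM of 1 in bulk, and its 10 highest genes held 47.2% of its FPKM. The lowest bulk-like rafts had a rho of 0.309 and 0.312, and the highest raft outside had 0.080. Over libraries with at least 1000 genes the difference in genes detected was 3553, and over bulk-like libraries it was 3204. Over the 9 rafts with at least 4000 genes, 7 saline and the untreated rafts 3 and 4, a limit chosen after the values were seen, it was 489.8 genes. These 3 values come from libraries chosen on the same measure or one close to it, which takes out the poorest untreated rafts, so they are given without a test. Water processed with the saline arm gave 2097 genes at FPKM 1 and water processed with the untreated arm gave 129, with a rho of 0.011 and -0.025 to bulk. The part of this background in the values of the saline rafts was not tested.

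Saline rafts also resembled each other more than untreated rafts did. Pairs of saline libraries with at least 1000 genes had a mean Spearman's rho of 0.630 (range 0.459 to 0.854, 7 libraries), pairs of untreated libraries had 0.229 (range -0.021 to 0.548, 5 libraries), and pairs across the arms had 0.367. Likeness within arms exceeded likeness across arms by 0.134, with p = 0.0114 in a one-sided exact permutation test over 792 labelings. This test sets pairs within arms against pairs across arms, and saline pairs were not tested against untreated pairs. Untreated pairs were less alike than pairs across the arms, and the highest within-arm values belonged to saline pairs. Untreated rafts 1 and 8, with 1495 and 1525 genes, had a rho of 0.297 to 0.352 with every other bulk-like raft. The share of library richness in the excess was not tested. Over bulk-like libraries the excess was 0.106, given without a test because these libraries were chosen by their rho with bulk over the same genes.

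Untreated rafts detected smaller shares of the line's genes at each bulk level. Of 130 genes averaging at least 1000 FPKM in bulk, bulk-like saline rafts detected 99.9% ± 0.291 (SD, n = 7) and bulk-like untreated rafts detected 91.7% ± 9.45 (SD, n = 4). Of 1026 genes between 100 and 1000 FPKM, saline rafts detected 94.3% ± 7.79 and untreated rafts detected 67.5% ± 31.04. Of 3673 genes between 10 and 100 FPKM the shares were 78.5% ± 21.1 in saline rafts and 43.9% ± 34.8 in untreated rafts, and of 5938 genes between 1 and 10 FPKM they were 45.7% ± 20.5 in saline rafts and 22.7% ± 21.9 in untreated rafts. Untreated rafts 3 and 4 detected 98.6% and 89.9% of the genes between 100 and 1000 FPKM, inside the saline range of 79.5% to 99.6%, while untreated rafts 1 and 8 both detected 40.8%. In all, 2081 genes were detected in all 7 bulk-like saline rafts, 487 in all 4 bulk-like untreated rafts and 419 in all 11.

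**Figure D2:**
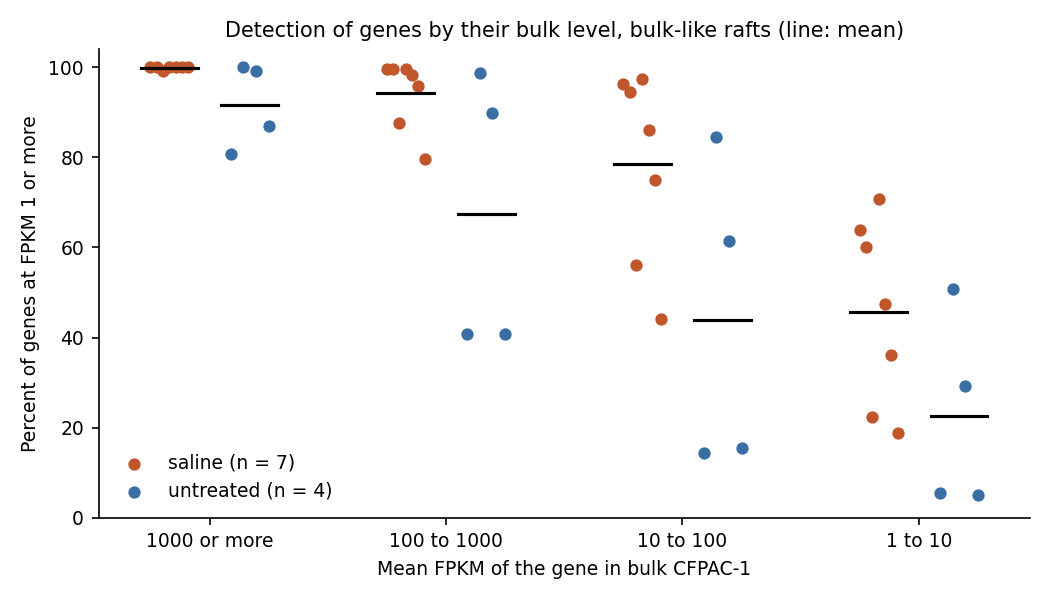
Percent of genes at FPKM 1 or more in each bulk-like raft, for genes grouped by mean bulk FPKM, saline at the left and untreated at the right of each group, with a line at the mean (n = 7 and 4). Untreated rafts 1 and 8 detected 40.8% of genes at 100 to 1000 FPKM, below every saline raft, whereas untreated rafts 3 and 4 lie within the saline range in every group.

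No gene differed between the arms at an adjusted p under 0.05, but most leaned the same way. limma was applied to log2(FPKM + 1), with Benjamini-Hochberg adjustment over every gene found in 4 or more of the libraries set against each other. Over libraries with at least 1000 genes (7 saline, 5 untreated), 0 of 8801 genes passed, which is 0% called, and the smallest adjusted p was 0.0612. At an unadjusted p under 0.05, 1861 genes (21.1%) were higher in saline rafts and 40 (0.454%) were lower. A positive difference was given by 85.2% of genes, and the median difference was 1.41 on the log2 scale. Over bulk-like libraries (7 saline, 4 untreated), 0 of 8603 genes passed (0%), 1189 (13.8%) were higher and 46 (0.535%) were lower at an unadjusted p under 0.05, 81.4% of differences were positive and their median was 1.14. In both fits a gene entered by detection in 4 or more libraries, which the richer saline rafts alone could supply. The lean therefore follows in part from that filter. With no filter on low values, over libraries with at least 1000 genes, 74.9% of differences were positive and their median was 0.61. Every saline library lay above every untreated library for 112 genes (1.3%) in the bulk-like set, and below every untreated library for 17 genes (0.198%). The count of 0 changed with the libraries and weights used. Without untreated raft 3 it was 691 over libraries with at least 1000 genes and 112 over bulk-like libraries, without untreated raft 4 it was 374 and 40, and limma's array weights gave 2526 over libraries with at least 1000 genes. Without untreated raft 8 it was 1 over bulk-like libraries.

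This lean moved with the number of genes detected. With that number as a covariate, 53.2% of differences were positive, their median was 0.13, 0 genes passed the adjusted threshold, and 363 genes were higher and 304 lower at an unadjusted p under 0.05. With the 9 rafts of at least 4000 genes, 49.1% were positive, the median was -0.03, and 1 of 8517 genes passed (0.0117%). That gene was UBB. Genes detected were counted from the same FPKM values as the differences, and these 9 rafts were chosen on that count. A smaller lean in both fits therefore follows in part from how they were built, and its source was not tested. By bulk level, the median difference over bulk-like libraries was 0.45 for genes of 1000 FPKM or more, 1.98 for genes of 100 to 1000 FPKM, 1.56 for 10 to 100 and 0.77 for 1 to 10. Over the 9 richest rafts the same medians were 0.22, 0.16, 0.01 and -0.13. Quantile normalization left a median of 0.87 over all genes. The differences of lists are therefore given beside the median of all genes in the same fit.

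**Figure D3:**
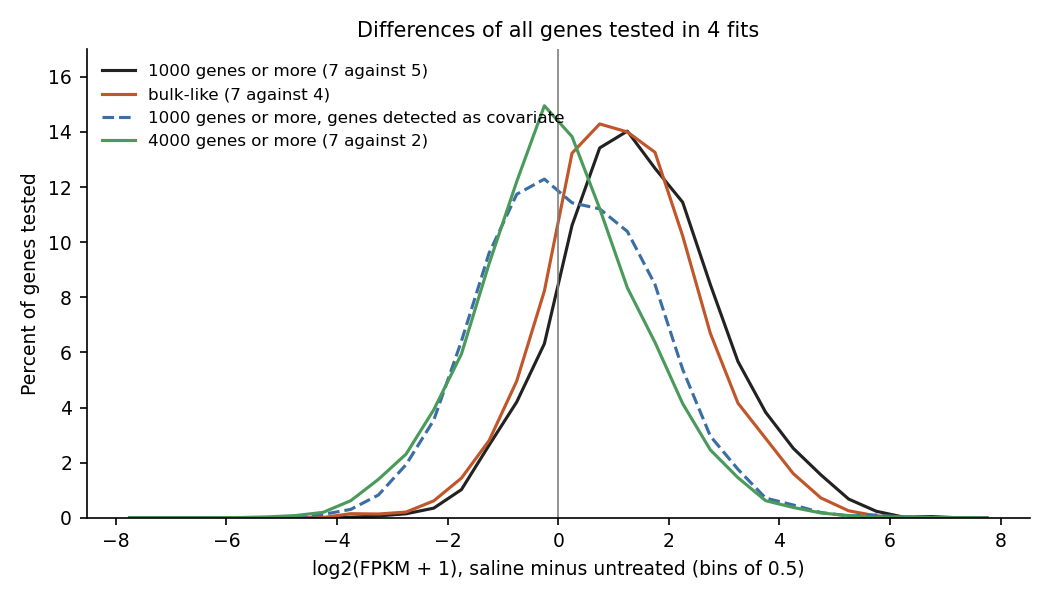
Distribution of the saline minus untreated difference in log2(FPKM + 1) over all genes tested, in bins of 0.5, as the percent of genes tested in each of 4 fits. The curves for libraries of 1000 genes or more and for bulk-like libraries peak above 0 (medians 1.41 and 1.14), and those with genes detected as a covariate and for libraries of 4000 genes or more peak near 0 (medians 0.13 and -0.03).

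The genes with the smallest p-values on the higher side were abundant in the line and, in most cases, missing from untreated rafts 1 and 8. The 12 named here had unadjusted limma p-values from 3.6e-05 to 0.000431 and adjusted p-values from 0.101 to 0.201 over bulk-like libraries, and 10 of the 12 were listed at 0 in both untreated rafts 1 and 8. The exceptions were UBB and LGALS1, which untreated raft 1 held. Their bulk means ran from 39.2 to 1952 FPKM, with a median of 323. All 12 kept a positive difference with genes detected as a covariate and over the 9 richest rafts. These fits share libraries with the fit that chose the genes, so the kept direction follows in part from the choice.

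UBB, which encodes polyubiquitin B, was the gene that passed the test over the 9 richest rafts. It had 2782, 2674, 3076, 2226, 341, 2152, 2732 and 2860.2 FPKM in saline rafts 1 to 8, against 919, 0, 1182, 455, 0, 0, 0 and 0 FPKM in untreated rafts 1 to 8. Every bulk-like saline raft was above every untreated raft, and only saline raft 5 fell among them. The difference was 4.14 over bulk-like libraries (95% interval 2.26 to 6.01, unadjusted limma p = 5.8e-05, adjusted p = 0.101) and 1.84 over the 9 richest rafts (95% interval 1.25 to 2.42, adjusted limma p = 0.0376). The latter fit was 1 of several alternatives, held only rafts 3 and 4 of the untreated arm, and used a limit chosen after the values were seen. Bulk CFPAC-1 had 1549 FPKM and rafts with 1 cell had a median of 1445 FPKM (lowest 298, highest 2285), so that the untreated rafts 1, 3 and 4 lay within the range of 1-cell rafts and 5 of the 7 bulk-like saline rafts lay above it. The coding repeats of UBB are not unique in the genome, so its level is uncertain. A water library held 18096 FPKM of UBB, and whether this bears on the saline values was not tested.

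LGALS1, the beta-galactoside-binding galectin-1, had 1125, 1212, 1072, 585, 0, 1016, 1301 and 1924 FPKM in saline rafts 1 to 8, against 64, 0, 626, 496, 75.3, 0, 0 and 0 FPKM in untreated rafts. Untreated raft 3 exceeded saline raft 4 and the groups overlapped there. The bulk-like difference was 4.06 (95% interval 2.05 to 6.07), against 1.00 over the 9 richest rafts. AIMP2, a scaffold subunit of the complex of aminoacyl-tRNA synthetases, had 111, 95.5, 16.1, 107, 0, 152, 101 and 176 FPKM in saline rafts and was listed at 0 in all 8 untreated rafts, so no fold is given. It was the only gene of the 12 listed at 0 in untreated rafts 3 and 4 alike, and it had a median of 58.7 FPKM in 1-cell rafts. A water library held 1665 FPKM of AIMP2, and 4 of the 12 genes were above 0 in a water library, the others being UBB, MRPL27 and COX6A1. The part of this background was not tested.

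Proteins of mitochondria are encoded by 3 of the 12. NDUFB9, a subunit of respiratory complex I, had 492.7, 297, 216, 591, 0, 353, 87.5 and 923 FPKM in saline rafts, against 221 FPKM in untreated raft 3 and 0 in the other 7 untreated rafts. COX6A1, a subunit of cytochrome c oxidase, had 705 to 2054 FPKM in the 7 bulk-like saline rafts, against 1481 FPKM in untreated raft 3, 335 in raft 4, 73.3 in raft 5 and 0 in the others. MRPL27, a protein of the mitochondrial ribosome, had 519 to 879.8 FPKM in the bulk-like saline rafts, against 358 and 492.9 FPKM in untreated rafts 3 and 4. Untreated raft 6, with 395 genes, carried 18687 FPKM of MRPL27, and a water library held 17743 FPKM of it. For NDUFB9 and COX6A1 untreated raft 3 lay within the saline range, and for MRPL27 untreated rafts 3 and 4 lay below it.

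The other 6 genes had the same form. RPL26L1, a near copy of the ribosomal protein gene RPL26 from which reads may not be separable, PHLDA2, an imprinted pleckstrin-homology protein, IMP4, a component of the small-subunit processome, DTYMK, the thymidylate kinase of dTTP synthesis, and PSMG1, a chaperone of proteasome assembly, each appeared in untreated raft 3 alone, at 131, 71.5, 45.9, 153 and 16.1 FPKM. Bulk-like saline rafts held 127 to 451 FPKM of RPL26L1, 109 to 333 of PHLDA2, 68.4 to 285 of IMP4, 28.7 to 607 of DTYMK and 28.8 to 144 of PSMG1. Untreated raft 3 was within the saline range for RPL26L1 and DTYMK and below it for PHLDA2, IMP4 and PSMG1. DMKN, the secreted epidermal protein dermokine, had 30.6 to 335 FPKM in bulk-like saline rafts against 48.2 FPKM in untreated raft 4 alone.

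On the lower side the smallest p-values belonged to genes scarce in bulk. The 12 named had unadjusted limma p-values from 0.00471 to 0.0143 and adjusted p-values from 0.263 to 0.303 over bulk-like libraries, and 7 of the 12 had a mean bulk FPKM under 5. All 12 kept a negative difference with genes detected as a covariate, and 10 of the 10 that were tested did so over the 9 richest rafts. In 5 of them, CDKN1A, HMGA1, RBCK1, STRN4 and TRNP1, every bulk-like saline raft was below every bulk-like untreated raft, out of the 17 such genes among all tested. The 12 were chosen by p-value in these same libraries, so the kept direction and the lack of overlap follow in part from the choice. Untreated rafts 1 and 8 also had the highest median FPKM over genes above 0 among the bulk-like rafts, 179 and 163. The part of this scale in the values of the 12 genes was not tested.

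CDKN1A, which encodes the cyclin-dependent kinase inhibitor p21 and is a transcriptional target of p53, had 34.2, 80.3, 38.2, 74.3, 0, 34.1, 52.1 and 0 FPKM in saline rafts 1 to 8, against 753, 0, 224, 196, 0, 0, 0 and 577 FPKM in untreated rafts 1 to 8. The 4 bulk-like untreated rafts were the 4 highest, and none of the other 4 untreated rafts held it. The difference was -3.70 over bulk-like libraries (95% interval -6.36 to -1.05, unadjusted limma p = 0.0073, adjusted p = 0.269), -1.99 over libraries with at least 1000 genes and -2.88 over the 9 richest rafts (95% interval -5.77 to 0.01). Rafts with 1 cell had a median of 38.3 FPKM (highest 117) and bulk had 5.15 FPKM. The saline values lay in the range of 1-cell rafts and the 4 untreated values lay above it. Untreated rafts 1 and 8, the highest for CDKN1A, had a median FPKM over all genes above 0 of 179 and 163. That median was lower in every bulk-like saline raft and every 1-cell raft. It was 15.7 and 33.7 in untreated rafts 3 and 4. The part of this scale in the CDKN1A values was not tested.

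HMGA1, an architectural chromatin protein that binds AT-rich DNA, had 329.8, 465, 433, 558, 0, 342, 268 and 547 FPKM in saline rafts, against 2038, 0, 1009, 1285, 0, 5569, 0 and 829.2 FPKM in untreated rafts. Wherever untreated rafts held it they exceeded every saline raft. Untreated raft 6, the highest, had 395 genes and met neither library criterion, and its 10 highest genes held 52.2% of its FPKM. The difference was -1.58 over bulk-like libraries (95% interval -2.77 to -0.38, unadjusted limma p = 0.0111, adjusted p = 0.285) and -1.48 over the 9 richest rafts, while over libraries with at least 1000 genes it was 0.47, since untreated raft 5 was listed at 0. Values in 1-cell rafts ran from 85.2 to 902 FPKM. HMGA1 has processed pseudogenes, so its reads may not all be separable.

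RBCK1, a subunit of the linear ubiquitin chain assembly complex, had 126, 220.0, 81.2, 233, 0, 80.8, 229 and 142 FPKM in saline rafts, against 633, 0, 374, 521, 102, 0, 0 and 1909 FPKM in untreated rafts, and its bulk-like difference was -2.25 (95% interval -3.97 to -0.53). STRN4, a striatin scaffold of a phosphatase complex, had 1.07 to 20.6 FPKM in bulk-like saline rafts against 555, 47.7, 44.9 and 279 FPKM in untreated rafts 1, 3, 4 and 8. TRNP1, a regulator of cell-cycle progression known from neural progenitors in mouse, had 0 to 6.52 FPKM in bulk-like saline rafts against 444, 43.4, 43.6 and 15.5 FPKM in the same untreated rafts. Of the 4 bulk-like untreated rafts, raft 8 held the highest value of RBCK1 and raft 1 those of STRN4 and TRNP1, and these 2 rafts had the fewest genes of the 4.

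The remaining 7 overlapped between the bulk-like arms. ARHGEF16, a guanine nucleotide exchange factor, LEMD2, a protein of the inner nuclear membrane, GGA1, an adaptor of trans-Golgi sorting, and ZC3H18, a zinc-finger protein of RNA processing, were each found in untreated rafts 1, 3 and 4, with maxima of 338, 376, 131 and 492 FPKM in raft 1, against maxima of 5.1, 6.54, 3.81 and 2.14 FPKM in bulk-like saline rafts. CNDP2, a cytosolic dipeptidase, was found in saline raft 4 alone at 29.8 FPKM, against 38.2, 12.6 and 125 FPKM in untreated rafts 3, 4 and 8. C11orf49 was present in 6 of 8 saline rafts, at up to 41.8 FPKM, and reached 858 FPKM in untreated raft 1, and ZYG11B, a substrate receptor of a cullin ubiquitin ligase, reached 6.1 FPKM in bulk-like saline rafts and 295 FPKM in untreated raft 8. Untreated raft 1, with 1495 genes, held the highest value of 5 of these 7 genes. A water library held 2977 FPKM of ARHGEF16 and 65.6 FPKM of ZYG11B, and the other 10 of the 12 lower genes were at 0 in all 7 water libraries.

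**Figure D4:**
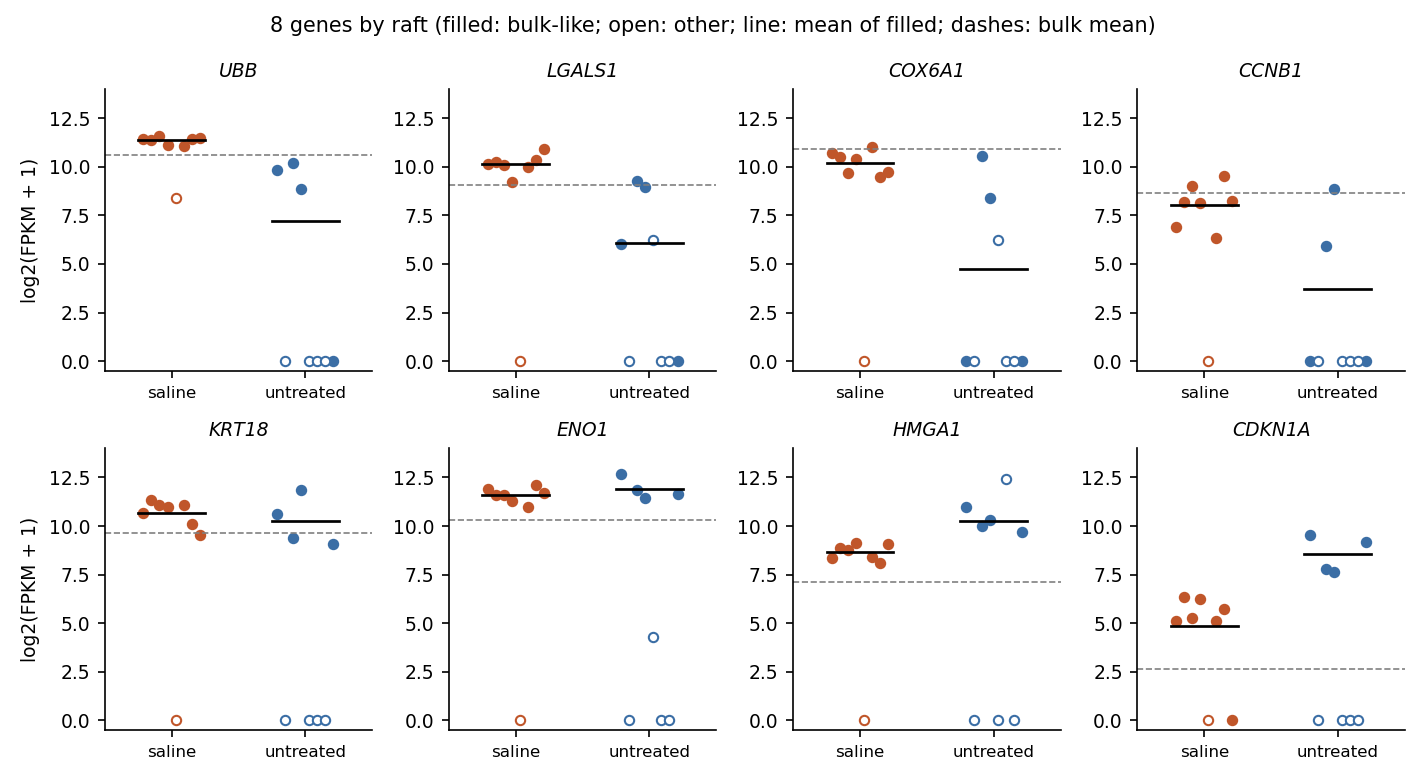
log2(FPKM + 1) of 8 genes in each of 16 rafts, saline at the left and untreated at the right of each panel; filled points are bulk-like rafts, open points the other rafts, lines the mean of filled points and dashes the bulk mean. UBB, LGALS1, COX6A1 and CCNB1 are absent from 1 or more filled untreated rafts, KRT18 and ENO1 overlap between the arms, and HMGA1 and CDKN1A lie higher in every filled untreated raft than in every filled saline raft.

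Abundant structural and metabolic genes overlapped between bulk-like rafts of the 2 arms. KRT18, a keratin of simple epithelia, had 1622, 2606, 2182, 2012, 0, 2187, 1105 and 743 FPKM in saline rafts 1 to 8, against 1592, 0, 672, 3728, 0, 0, 0 and 537 FPKM in untreated rafts. Its bulk-like difference was 0.45 (95% interval -0.47 to 1.37), and that of its partner KRT8 was -0.24 (-1.16 to 0.67). ENO1, the glycolytic enolase, had 2029 to 4419 FPKM in bulk-like saline rafts against 2808 to 6501 FPKM in bulk-like untreated rafts, a difference of -0.32 (-0.87 to 0.23). LDHA, which reduces pyruvate to lactate, differed by -0.41 (-1.28 to 0.46), VIM, the intermediate filament vimentin, by -0.45 (-1.91 to 1.00), and APRT, the adenine salvage enzyme, by -0.18 (-1.27 to 0.90). All 6 intervals included 0, and their widths differed, from that of ENO1, the narrowest, to that of VIM, the widest. EPCAM, an epithelial adhesion molecule of lower abundance, had 0 to 351 FPKM in bulk-like saline rafts against 99.8 and 41 FPKM in untreated rafts 3 and 4 and 0 in rafts 1 and 8. KRT19, ACTB and GAPDH were not analysed here.

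Ferritin and ribosomal protein transcripts were retained in most untreated rafts that passed the criteria. FTH1, the ferritin heavy chain, was above 0 in all 8 saline rafts, from 534 FPKM in raft 5 to 46454 FPKM in raft 2, and in 7 of 8 untreated rafts, up to 94788 FPKM in raft 8. Its bulk-like difference was -0.18 (95% interval -0.61 to 0.25), and reads from its pseudogenes may be included. All 68 ribosomal protein genes were detected in 6 of the saline rafts and 67 in raft 8, whereas untreated rafts 3 and 4 had 68, raft 1 had 64 and raft 8 had 56. Untreated raft 5, which reached 1000 genes but was not bulk-like, had 6. Over these 68 genes the median difference was 0.37 in the bulk-like fit, against 1.14 for all genes, with 0 called, and 11 higher (13.8% of all genes were) and 0 lower at an unadjusted p under 0.05. The order was the other way in the other fits. The median of the 68 was 2.19 over libraries with at least 1000 genes (all genes 1.41), 1.51 with genes detected as a covariate (all genes 0.13) and 0.24 over the 9 richest rafts (all genes -0.03). Genes of 1000 FPKM or more in bulk had similar medians, 2.22, 1.51 and 0.22 in these fits and 0.45 in the bulk-like fit. The list was not matched to other genes by bulk level. RPLP1, an acidic stalk protein of the large subunit, had 1666 to 2830.1 FPKM in bulk-like saline rafts against 663 to 1967 FPKM in bulk-like untreated rafts.

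Genes of oxidative phosphorylation had the highest median over libraries of at least 1000 genes among the 16 lists with at least 9 genes tested. Of 41 nuclear-encoded subunits tested, 0 passed the adjusted threshold and 16 were higher (21.1% of all genes were) and 0 lower at an unadjusted p under 0.05, with a median difference of 2.54 against 1.41 for all genes. The median was 1.31 with genes detected as a covariate (all genes 0.13), where 39 of 41 differences were positive, 1.69 over bulk-like libraries (all genes 1.14) and 0.19 over the 9 richest rafts (all genes -0.03). Genes of 100 to 1000 FPKM in bulk had medians of 1.33, 1.98 and 0.16 in these fits. Over libraries of at least 1000 genes their median was 2.79, above that of the list. The list was not matched to other genes by bulk level. All 41 were detected in saline rafts 1, 2, 4, 6 and 7 and 40 in rafts 3 and 8, against 41 and 38 in untreated rafts 3 and 4 and 22 and 27 in untreated rafts 1 and 8. UQCRC1, a core subunit of complex III, had 302 to 851 FPKM in bulk-like saline rafts against 85.9, 666, 540.2 and 406 FPKM in untreated rafts 1, 3, 4 and 8, and these overlapped.

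All rafts compared carry the label proliferative, and cell-cycle transcripts were detected in the rich libraries of both arms. Of 43 G1/S genes, which act in DNA replication, saline rafts 1 to 8 detected 41, 37, 25, 42, 2, 32, 34 and 17, and untreated rafts 1 to 8 detected 8, 0, 33, 26, 3, 4, 0 and 3. Of 52 G2/M genes, which act in mitosis, saline rafts detected 46, 51, 29, 52, 6, 19, 47 and 29, and untreated rafts detected 4, 0, 47, 44, 3, 1, 0 and 2. Untreated rafts 3 and 4 lay inside the saline range of both lists, and rafts 1 and 8 below every bulk-like saline raft. The median difference of 39 G1/S genes tested was 2.35 over libraries with at least 1000 genes, 1.83 over bulk-like libraries and 0.40 over the 9 richest rafts. That of 49 G2/M genes was 2.15, 1.74 and -0.59 in the same fits, and 0 genes of either list were called in these 3 fits. Over libraries with at least 1000 genes, 13 G1/S and 15 G2/M genes were higher at an unadjusted p under 0.05 (21.1% of all genes were). In that fit 0 genes of either list were lower.

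CCNB1, the cyclin that activates CDK1 at mitosis, had 117, 295, 522, 276, 0, 78.8, 726 and 303 FPKM in saline rafts, against 59.9 and 460.4 FPKM in untreated rafts 3 and 4 and 0 in the other 6. CDK1 itself had 29.6 to 157 FPKM in 6 saline rafts and 0 in rafts 5 and 6, against 55.5 and 277 FPKM in untreated rafts 3 and 4. TOP2A, the mitotic DNA topoisomerase, UBE2C, an enzyme of the anaphase-promoting pathway, and TYMS, the thymidylate synthase, were likewise found in the untreated arm in rafts 3 and 4 alone. In each of these 5 genes, at least 1 of the untreated rafts 3 and 4 lay within the saline range. PCNA, the sliding clamp of DNA polymerase, was also present in untreated raft 1, at 317 FPKM, above the saline maximum of 204 FPKM. MKI67, the Ki-67 proliferation antigen, was low throughout, with at most 28.2 FPKM in bulk-like saline rafts and 12.1 FPKM in bulk-like untreated rafts, but stood at 2587 FPKM in saline raft 5, which held 735 genes.

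MCM2, a subunit of the replicative helicase, and CHAF1B, a subunit of the chromatin assembly factor CAF-1, were 2 of the 112 genes (1.3%) for which every bulk-like saline raft was above every bulk-like untreated raft. MCM2 had 20.1 to 219 FPKM in bulk-like saline rafts against 0.66 and 1.86 FPKM in untreated rafts 3 and 4. CHAF1B had 11.1 to 114 FPKM in bulk-like saline rafts and was listed at 0 in all 8 untreated rafts. Neither passed the test, with an adjusted limma p of 0.201 each over bulk-like libraries, and both are named because their p-values were among the smallest of the G1/S list.

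No gene of the osmotic and salt response passed the test. Saline as a carrier raises the question of whether sodium load or osmolarity was sensed, and the genes examined were NFAT5 targets, osmolyte transporters and ion transport proteins. Of 14 tested, 0 passed the adjusted threshold, 2 were higher (13.8% of all genes were) and 0 lower at an unadjusted p under 0.05 in the bulk-like fit, and their median difference was 0.41 against 1.14 for all genes. Over the 9 richest rafts 3 differences were positive and 11 negative, with a median of -1.12 against -0.03 for all genes and 0 called. SLC5A3, the sodium-coupled myo-inositol transporter induced by hypertonicity, had at most 5.55 FPKM in saline rafts against 2.95, 38.3 and 132 FPKM in untreated rafts 1, 3 and 5. AKR1B1, the aldose reductase that makes sorbitol, had 158 to 503 FPKM in 6 bulk-like saline rafts and 0 in raft 8, against 268 and 1389 FPKM in untreated rafts 3 and 4 and 0 in rafts 1 and 8.

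SGK1, a kinase of sodium transport, had 9.37 to 14 FPKM in saline rafts 1, 2, 4 and 6 and 0 in the other 4, and in the untreated arm was seen in raft 5 alone, at 67.2 FPKM. SLC38A2, an amino acid transporter also induced by hypertonicity, had at most 21.7 FPKM in saline rafts against 71.03 FPKM in untreated raft 3. CLIC1, an intracellular chloride channel protein, was the most abundant of those described, with 749 to 2480.4 FPKM in bulk-like saline rafts against 1214, 1685 and 680.1 FPKM in untreated rafts 3, 4 and 8 and 0 in raft 1.

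FOS, an immediate early transcription factor, and GDF15, a stress-induced cytokine, were listed at 0 in all 16 rafts, and ATF3, a stress-induced repressor of transcription, was seen in saline raft 8 alone, at 13 FPKM. Of 7 immediate early genes tested, 0 were called and 0 had an unadjusted p under 0.05 in either direction in the bulk-like fit. The most abundant of the named ones, FOSL1, a subunit of the transcription factor AP-1, reached 1452 FPKM in saline rafts and 1561 FPKM in untreated rafts. Genes of the unfolded protein response were unevenly spread. Of 13 tested, 0 were called, 3 were higher (13.8% of all genes were) and 0 lower at an unadjusted p under 0.05 over bulk-like libraries, with a median of 1.82 against 1.14 for all genes. HSPA5, the chaperone BiP of the endoplasmic reticulum, had 316, 59.4, 18.4, 434, 0, 1235, 123 and 2.46 FPKM in saline rafts, against 204 FPKM in untreated raft 3, 11305 FPKM in raft 5 and 0 in the others. DDIT3, the transcription factor CHOP, and HERPUD1, a protein of ER-associated degradation, had 0 in saline rafts 3 and 5 and up to 231 and 269.6 FPKM in the others, against 75.5 and 105 FPKM in untreated raft 3 alone. HSPA1A was not analysed here.

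**Figure D5:**
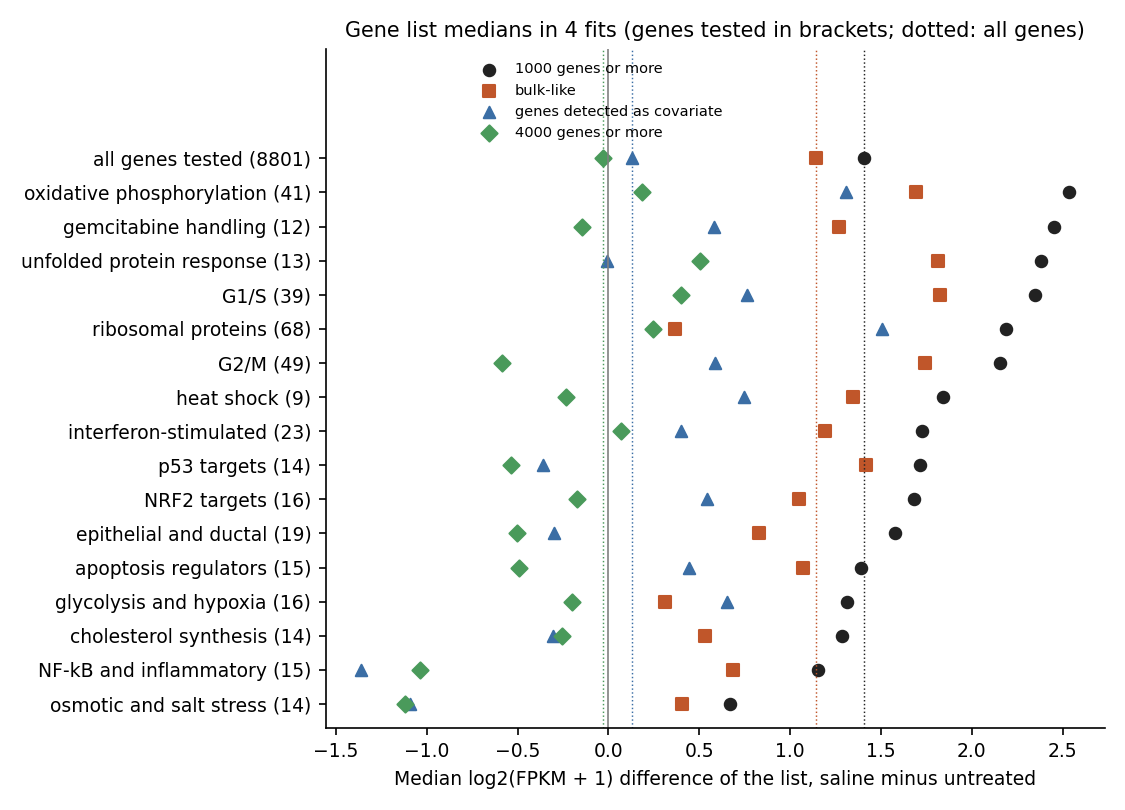
Median saline minus untreated difference in log2(FPKM + 1) for 16 gene lists with at least 9 genes tested and for all genes, in 4 fits, with the number of genes tested in brackets and dotted lines at the medians of all genes. The black and orange points lie above 0 for every list shown, whereas the green points for the 9 richest rafts lie on both sides of 0, from -1.12 for osmotic and salt stress to 0.50 for the unfolded protein response.

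In the remaining lists 0 genes were called, and the medians are given over bulk-like libraries and then over the 9 richest rafts. They were 1.42 and -0.53 for 14 p53 targets, 1.07 and -0.49 for 15 apoptosis regulators, 0.68 and -1.03 for 15 NF-kB and inflammatory genes, and 1.19 and 0.07 for 23 interferon-stimulated genes. They were 1.35 and -0.23 for 9 heat shock genes, 1.05 and -0.17 for 16 NRF2 targets, 0.31 and -0.20 for 16 genes of glycolysis and hypoxia, and 0.53 and -0.25 for 14 genes of cholesterol synthesis. The median of 12 genes of gemcitabine handling was 1.27 and -0.15, that of 19 epithelial and ductal genes 0.83 and -0.50, and that of 5 mesenchymal genes 0.06 and -0.63. Over all genes the medians were 1.14 and -0.03. BIK, a BH3-only inducer of apoptosis, with 129 to 263 FPKM in bulk-like saline rafts against 66.7 and 55.2 FPKM in untreated rafts 3 and 4, and BID, another BH3-only protein, with 155 to 278 FPKM against 78.3 and 120.5 FPKM, were also among the 112 genes (1.3%) with no overlap between the bulk-like arms.

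Genes found in some blanks and MTRNR2L genes had their highest levels in rafts that were not bulk-like. PCSK5, TMEM45A and ASTN2, which were above 0 in 4, 4 and 3 of the 7 water libraries, had at most 9.47, 7.28 and 3.53 FPKM in bulk-like saline rafts and at most 1.06, 3.93 and 1.73 FPKM in bulk-like untreated rafts. They reached 835, 1060.1 and 233 FPKM in untreated raft 5. MTRNR2L genes, nuclear copies related to mitochondrial ribosomal RNA, held 6.21% of the FPKM of saline raft 5, at most 0.210% of that of the other saline rafts, 22.7% and 20.5% of that of untreated rafts 7 and 2, and at most 0.179% of that of bulk-like untreated rafts.

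The saline minus untreated difference in proliferative rafts was set against the same difference in nonproliferative rafts of the 2 arms. Over libraries with at least 1000 genes, 0 of 11476 genes passed the limma test of this interaction (0%), with 289 at an unadjusted p under 0.05. Over bulk-like libraries 32 of 10093 passed (0.317%), and all 32 had a smaller difference in proliferative rafts. The nonproliferative side of this test rested on 4 saline and 2 untreated libraries, and those 2 held 2353 and 2196 genes. APRT had 414.7 to 1007 FPKM in bulk-like proliferative saline rafts and 604 to 1020.1 FPKM in bulk-like proliferative untreated rafts, whereas it had 464 to 1336 FPKM in nonproliferative saline rafts and 0 in both nonproliferative untreated rafts. HMGA1 had 200.1 to 497 FPKM in the nonproliferative saline rafts against 0 and 1.08 FPKM in the untreated ones, and ENO1 had 1989 to 3031 FPKM against 189 and 65.4 FPKM. These genes are described because they passed this test.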

How the data were processed

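The authors deposited 1 table of FPKM values for the 120 libraries, with 30504 rows, made with RSEM and hg19, per the submitters' processing notes; their roles, versions and filters are not given in the sources used here. FPKM carries no counts, so sequencing depth is unknown and no counting interval is given. Libraries were grouped by their treatment and proliferation labels. Genes were called detected at an FPKM of 1. limma 3.58.1 (R 4.3.3), with a variance trend, was fitted to log2(FPKM + 1) with 1 term per arm, over all genes detected in at least 4 libraries, and a fold on this scale understates changes of low genes. Values of libraries were compared with exact permutation tests in scipy 1.17.1. Both procedures were tested on simulated data drawn independently from normal distributions. These hold no differences in richness between libraries, so they cannot show how the tests behave with such differences. Members, lists and criteria were chosen with earlier results of these data known. The text names the 12 genes of smallest unadjusted p in each direction of the bulk-like fit, because 0 were called, 30 fixed genes, and members of 23 lists with the smallest p, leaving out pseudogenes, noncoding and repeated names. FTH1 is named as called with the replicate block; SMAD4 and CFTR were picked as checks of the line. Alternatives covered pseudocount, filters, scaling, library choice, covariates, variance models, replicate block and leaving out each library.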

Additional observations from a re-analysis of the deposited data

Results flagged for a closer look

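Of 103 groups of 4 to 8 rafts examined for a lone extreme value, 24 were flagged. The limits flag about 1 group in 20 by chance where values are normally distributed. Values with many zeros are not, so the count of 24 cannot be set against that rate. Where all rafts of a group but 1 are listed at 0, the flag follows from that, and 12 genes each way had been chosen by their p-values. Saline raft 5 lay far from the other 7 saline rafts in rho with bulk (0.080), in the share of FPKM held by its 10 highest genes (54.4%), in the share of detected genes below an FPKM of 1 in bulk (27.6%) and in summed FPKM (566758). It entered the fit with all 16 libraries and no other fit of proliferative rafts across genes.

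Among the 4 bulk-like untreated rafts, 9 genes stood out because 3 rafts were listed at 0 and the fourth was not. Untreated raft 3 alone held DTYMK (153 FPKM), IMP4 (45.9), NDUFB9 (221), PHLDA2 (71.5), PSMG1 (16.1), RPL26L1 (131), SLC38A2 (71.03) and HSPA5 (204), and untreated raft 4 alone held DMKN (48.2). UBB was flagged the other way, at 0 in untreated raft 8 and present in rafts 1, 3 and 4.

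Among the 7 bulk-like saline rafts, raft 8, the poorest with 4029 genes, was flagged for CDKN1A, PCNA and AKR1B1 at 0, for PSMG1 at 28.8 FPKM and for ATF3 at 13 FPKM. Raft 6 was flagged for CDK1 and TOP2A at 0, although it detected 7781 genes. It also detected 19 of 52 G2/M genes, the fewest of the 7, and 32 of 43 G1/S genes. Raft 4 was flagged for CNDP2 (29.8 FPKM) and LEMD2 (6.54 FPKM), and raft 3 for AIMP2 (16.1 FPKM).

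The saline minus untreated difference was smaller in proliferative than in nonproliferative bulk-like rafts for 32 genes by limma's interaction test. These 32 included HMGA1 (-9.29 on the log2 scale), APRT (-10.00), ENO1 (-4.76), FOSL1 (-8.28), UQCRC1 (-7.68) and RPS9 (-7.08), a ribosomal protein gene. Each of those named rests on 2 untreated nonproliferative rafts in which the gene was at or near 0, except ENO1, at 189 and 65.4 FPKM.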

How the results depend on the processing

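The count of 0 genes called between the arms was also 0 with a pseudocount of 0.1, no filter, quantile or total scaling, all 16 libraries, bulk-like libraries, the covariate, robust variance and genes with a bulk FPKM of 1 or more. It was 3 with a stricter filter on low values, 1 with 8 groups in 1 fit, 2526 with array weights and 1 with rafts of at least 4000 genes. The limits of 4000 genes and of a bulk FPKM of 1 were chosen after seeing the data. Leaving out 1 library gave 0 to 691 genes over libraries with at least 1000 genes, with 691 without untreated raft 3 and 374 without untreated raft 4. The other left-out rafts gave 0. Over bulk-like libraries it gave 0 to 112, with 112, 40 and 1 without untreated rafts 3, 4 and 8. For replicate numbers 1, 3, 4 and 8, where both rafts had at least 1000 genes, deviations of same-numbered rafts correlated from -0.095 to 0.031. The other numbers were not examined, so whether equal numbers pair those rafts is not known. With the replicate block 4 genes were called over libraries with at least 1000 genes and 1 over bulk-like libraries, and the difference in genes detected, 4034, had an exact p of 0.0547.

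The interaction count was 0 with libraries of at least 1000 genes and 32 with bulk-like libraries. The difference in genes detected was 3553, 3204 and 489.8 genes over libraries of at least 1000 genes, bulk-like libraries and libraries of at least 4000 genes, values that the choice of libraries in part fixes, and was 3533 to 4870.4 with 1 raft left out. The difference in rho was 0.078 over libraries of at least 4000 genes, which are also chosen on richness, and 0.327 to 0.441 with 1 raft left out. The excess of likeness within arms was 0.088 to 0.230 with 1 library left out. The median difference of all genes was 1.14 to 1.97, and 0.758 to 1.79 over bulk-like libraries, with 1 library left out. HMGA1, 0.47 over libraries with at least 1000 genes and -1.58 to 1.17 with 1 library left out, was -1.58 over bulk-like libraries and without untreated raft 5, -0.16 with the covariate, -1.41 with the block and -1.48 over the richest rafts. RBCK1, -1.70 in the same fit, was 0.74 with all 16 libraries. The cause was not tested.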
